A study of Homo sapiens with 17 samples.

Results

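The olfactory receptor genes off chromosome 11 were taken as the protein-coding genes on chromosomes 1 to 10 and 12 to 22 whose whole symbol is OR, a number, letters and a number. They came to 218 of 19974 protein-coding genes on chromosomes 1 to 22 and X, and 171 further receptor genes with such symbols lay on chromosome 11. Olfactory receptors are G protein-coupled receptors that bind odorants at the cilia of olfactory sensory neurons. Each such neuron expresses a single receptor allele, and outside these neurons most receptor genes are silent. In mouse olfactory epithelium, receptor clusters carry H3K9me3, a histone mark of constitutive heterochromatin, while H3K27me3 is the mark that Polycomb complexes place on silent developmental genes.

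All data are from A549, a human lung carcinoma line, fixed with 1% formaldehyde and measured by ChIP-seq, which sequences the DNA bound to an immunoprecipitated protein. A line with A-Fos integrated by piggyBac transposition was measured after 48 h with 1 µg/mL doxycycline (Dox) and without it (noDox), each with 2 libraries for FOXA1 and 2 for FOSL2. Untreated wild-type cells (WT) gave 2 libraries each for FOXA1, H3K9me3 and H3K27me3. FOXA1 is a pioneer factor that binds DNA in closed chromatin, FOSL2 is a subunit of the AP-1 factor, and A-Fos is a dominant-negative protein that pairs with AP-1 subunits and keeps them off DNA. No Dox-treated cells without A-Fos and no mark libraries of the A-Fos line were analysed here, so the effect of A-Fos and that of doxycycline cannot be told apart and the marks were seen in WT cells only. The sample titles call the libraries biological replicates, and whether they came from separate cultures is not given in the sources used here.

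Each library gave 1 peak list and no read counts, so sequencing depth behind a value is unknown and a longer list may come from a deeper library. The FOXA1 lists held 11112 and 15065 peaks with Dox, 7633 and 13247 without it and 49448 and 80318 in WT cells, and the FOSL2 lists held 1854 and 5274 peaks with Dox and 45586 and 14842 without it. As checks of the marks, 208 of 240 zinc finger genes on chromosome 19 carried H3K9me3, 11 of 20 developmental regulators carried H3K27me3, and none of 12 housekeeping genes carried either. Of 10 lung epithelial markers, 8 had a FOXA1 region of both WT lists within 50 kb, as did 9 of the 12 housekeeping genes and 71.6% of all protein-coding genes. Olfactory neuron markers can be read here only as chromatin, and none of 6 (OMP and LHX2 among them) carried a mark by the rule given next.

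For a gene, cover is the percentage of its length inside a list's peaks, and a gene was called for a mark when cover was at least 25% in both lists. H3K27me3 called 64 of the 218 members (29.4%), against 10.2% of all protein-coding genes and 15.3% of those of at most 10 kb. H3K9me3 called 25 members (11.5%), against 3.67% of all genes and 3.66% of those of at most 10 kb. Receptor genes of chromosome 11 gave 42 of 171 (24.6%) for H3K27me3 and 19 of 171 (11.1%) for H3K9me3. The comparison with short genes was made because cover depends on gene length, and 166 of the 218 members are at most 10 kb long. Of these 166, 49 (29.5%) were called for H3K27me3 and 21 (12.7%) for H3K9me3. Their median length was 1185.5 bp, against 4402 bp in all genes of at most 10 kb, so length was still not matched. The members had a median length of 5188 bp, against 1094 bp in the chromosome 11 receptors.

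Most members nevertheless had little of either mark. The median cover over members was 0% and 7.495% in the H3K27me3 lists and 1.78% and 0% in the H3K9me3 lists, while the median over all genes was 0% in each of the 4. The upper quartile of the mean cover was 46.6% for H3K27me3 and 16.4% for H3K9me3. Neither mark was called at 140 members, H3K27me3 alone at 53, H3K9me3 alone at 14, and both at 11 (5.05%, against 0.491% of all genes). An overlap of any size in both lists was found at 102 members (46.8%) for H3K27me3, against 30.2% of all genes, and at 71 members (32.6%) for H3K9me3, against 39.0% of all genes. Among genes of at most 10 kb, that H3K9me3 overlap was found at 36 of 166 members (21.7%), against 8.84% of all such genes.

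A set of zeros comes from stretches where the lists hold nothing. In 7 stretches of at least 100 kb that contained a member, none of the 14 lists had a peak of any kind, and 26 members lay wholly inside them. The longest ran over chr6:28506570-33484780 (4978 kb) and took in all 14 receptors of the chromosome 6 cluster OR2W1 to OR2H2, among them OR2J3, which responds to a leaf alcohol, and the broadly tuned OR2W1. The same stretch held 157 other protein-coding genes, including TUBB, a tubulin gene. Another of 169 kb on chromosome 1 held 6 receptors next to each other (OR2T4, OR2T6, OR2T1, OR2T2, OR2T3 and OR2T5), and OR9A2, OR6V1, OR13A1, OR4F29, OR4F21 and OR4F17 lay in the rest. No list skips a peak number across these stretches where it has peaks on both sides. The stretch of OR4F21 (chr8:1-205932) starts at base 1, so it could not be checked in this way. Why the lists are empty there was not tested, so the zero cover of these 26 genes is not read as absence of a mark. Outside such stretches, 64 of 192 members (33.3%) were called for H3K27me3 and 25 (13.0%) for H3K9me3, against 10.7% and 3.86% of the 19036 genes outside them. Of the 5196 genes of at most 10 kb outside them, 16.6% and 3.98% were called. OR4F and some OR2T and OR11H genes have near-identical copies elsewhere, so reads may be split among copies and their values are uncertain.

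The members fell into 42 clusters when genes under 250 kb apart were joined. Of these clusters, 16 held 1 member, 13 held 2 to 4, and 13 held 5 or more and together 173 members. A member called for H3K27me3 was found in 24 clusters and one called for H3K9me3 in 10. The clusters differed in which mark covered them, as the plot of every member by cluster and the plot of cover over whole cluster spans show.

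**Figure D1:**
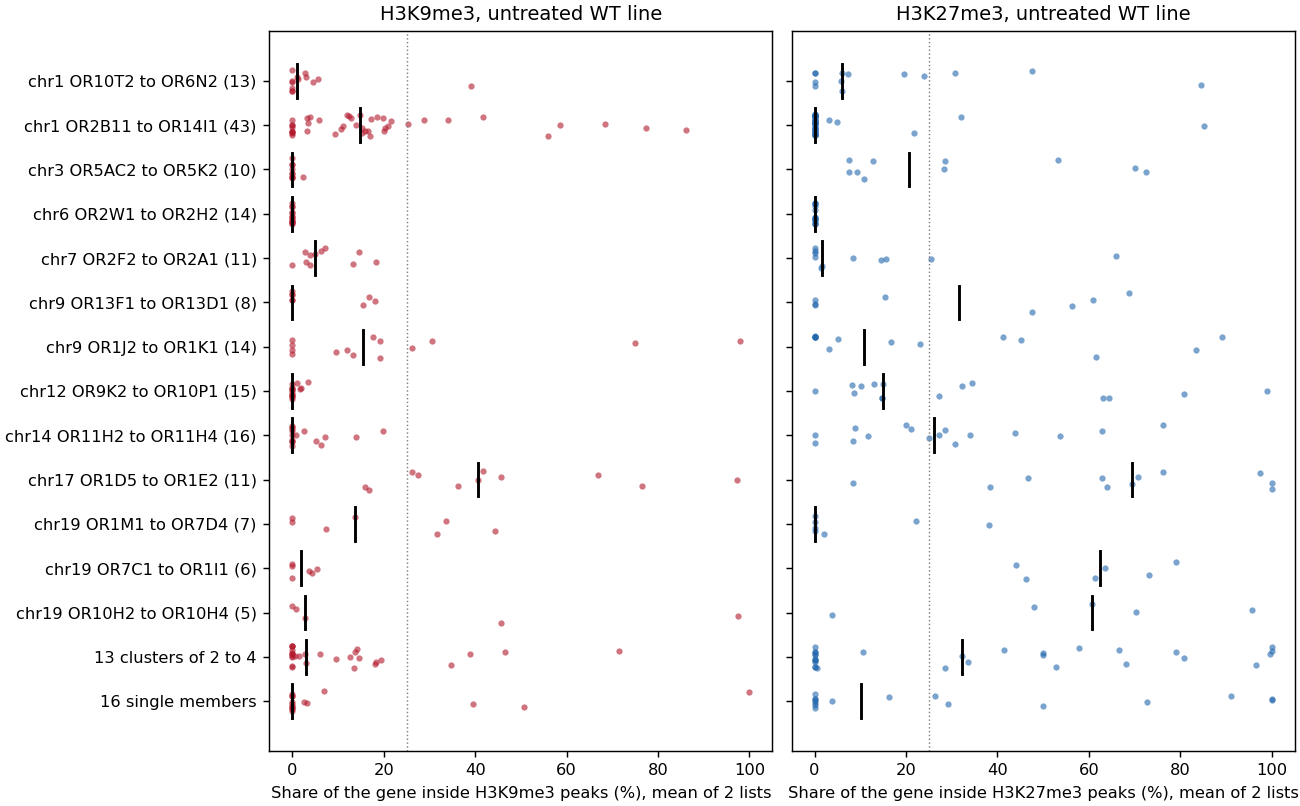
Share of each member gene inside H3K9me3 peaks (left) and H3K27me3 peaks (right) in WT cells, as the mean of 2 lists in percent. Each point is 1 member, rows are the 13 clusters of 5 or more members (number of members in brackets) and the smaller clusters pooled, black bars are medians and the dotted line is the 25% threshold. The median of the chromosome 17 row lies right of the line for both marks, and the 14 members of the chromosome 6 row are at 0.

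The chromosome 17 cluster from OR1D5 to OR1E2 (chr17:3062669-3433841, 371 kb) carried both marks. H3K27me3 covered 44.8% and 60.6% of its span in the 2 lists and H3K9me3 34.8% and 16.4%, so the H3K9me3 lists differed from each other more here. Of its 11 members, 9 were called for H3K27me3, 6 for H3K9me3 and 5 for both (OR1D2, OR1G1, OR1A2, OR1A1 and OR1E2). OR1A2, a citronellal receptor, was inside H3K27me3 peaks over 100% of its length in both lists and inside H3K9me3 peaks over 81.9% and 71.1%. Its neighbour OR1A1, which responds to the same odorant, had 73.8% and 78.5% for H3K27me3 and 42.6% and 38.7% for H3K9me3. OR1D2, a receptor for floral aldehydes that is also described in sperm, had 54.1% and 74.0% for H3K27me3 and 45.7% and 26.7% for H3K9me3. OR1D5 had 99.7% and 94.7% for H3K9me3 but 0% and 76.6% for H3K27me3, so the H3K27me3 lists disagreed on it. OR1G1 (100% in both lists) and OR1E2 (95.1% and 99.9%) were among the members most covered by H3K27me3. Among the 10 other genes within 250 kb of this cluster, 2 were called for H3K27me3 and none for H3K9me3.

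On chromosome 19 the 3 clusters of 5 or more members differed from each other. In the cluster from OR7C1 to OR1I1 (chr19:14798515-15092970), each of the 6 members was called for H3K27me3 and none for H3K9me3. OR7C2 had 58.1% and 100% for H3K27me3, OR7A10 64.6% and 81.9%, and OR7A17 43.2% and 49.5%, with H3K9me3 at most 10.8% in any list of these 3. The cluster from OR10H2 to OR10H4 (chr19:15728024-15949958) had 4 of 5 members called for H3K27me3 and 2 for H3K9me3. OR10H4 carried both marks, with 89.0% and 51.8% for H3K27me3 and 100% and 94.95% for H3K9me3, whereas OR10H2 had 93.3% and 98.3% for H3K27me3 and 0% in both H3K9me3 lists.

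The third, from OR1M1 to OR7D4 (chr19:9087061-9252625), showed the opposite pattern. H3K9me3 covered 33.3% and 42.3% of its span, against 2.22% and 5.07% for H3K27me3. OR7D4, the androstenone receptor, had 30.1% and 33.0% for H3K9me3 and 0% in both H3K27me3 lists. OR7D2 (38.1% and 50.5%) and OR7E24 (26.5% and 40.7%) were the other members called for H3K9me3. OR7G2 in the same cluster had 20.2% and 7.34% for H3K9me3 and 24.5% and 51.7% for H3K27me3, so neither call was reached. Of the 7 receptors 3 were called for H3K9me3, against 8 of the 10 other genes within 250 kb.

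**Figure D2:**
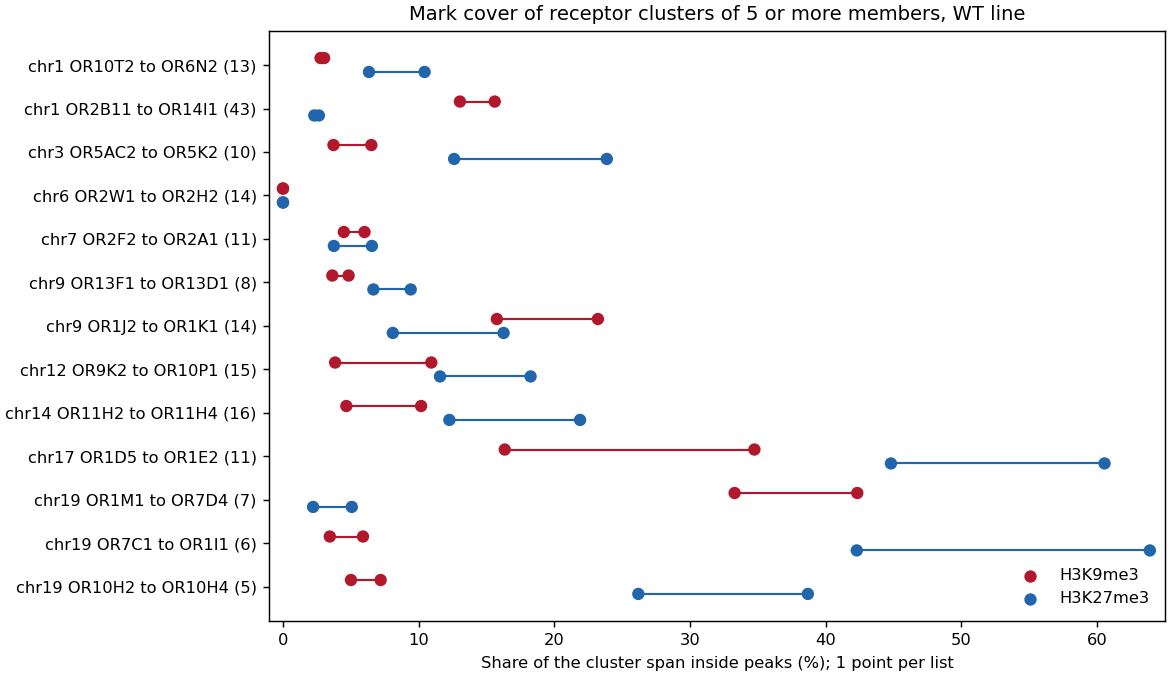
Share of the span of each receptor cluster of 5 or more members inside H3K9me3 (red) and H3K27me3 (blue) peaks in WT cells, in percent. Each point is 1 list and a line joins the 2 lists of a mark. H3K27me3 exceeds H3K9me3 in both lists in the chromosome 17 cluster and in the chromosome 19 clusters OR7C1 to OR1I1 and OR10H2 to OR10H4, and H3K9me3 exceeds H3K27me3 in OR1M1 to OR7D4 and in the 43-member cluster of chromosome 1.

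The largest cluster, OR2B11 to OR14I1 near the q end of chromosome 1 (chr1:247449118-248702766), held 43 members. H3K9me3 covered 13.0% and 15.6% of its 1254 kb and H3K27me3 2.31% and 2.65%. Its 7 members called for H3K9me3 were OR2G2, OR6F1, OR14K1, OR2W3, OR2L8, OR2AK2 and OR2M5, none of which was called for H3K27me3. OR2W3 had 78.4% and 93.8% for H3K9me3, OR2M5 had 84.3% and 70.2%, and OR2G2 had 66.8% and 70.1%, each with 0% in both H3K27me3 lists. OR2M3, which binds an onion thiol, had 13.0% and 16.6% for H3K9me3 and 0% for H3K27me3. The 2 members called for H3K27me3 lay toward the ends of the cluster: OR2B11, its first gene, had 81.4% and 89.1%, and OR2T11 had 31.7% and 32.6%. The map of this cluster shows H3K9me3 over its first part and the empty run of OR2T genes after it.

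**Figure D3:**
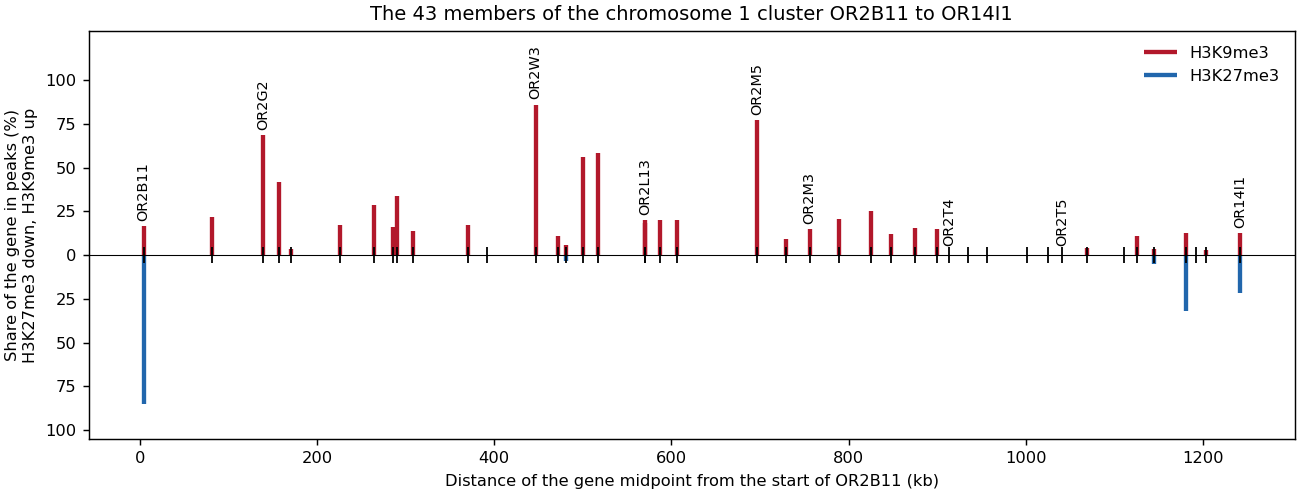
Cover of the 43 members of the chromosome 1 cluster by H3K9me3 (red, upward) and H3K27me3 (blue, downward), in percent of the gene as the mean of 2 WT lists, against distance from the start of OR2B11 in kb. Black ticks are gene midpoints. OR2W3 and OR2M5 stand highest for H3K9me3, OR2B11 for H3K27me3, and the genes between OR2T4 and OR2T5 are at 0.

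The remaining clusters of 5 or more members varied. In the chromosome 12 cluster OR9K2 to OR10P1, 7 of 15 members were called for H3K27me3 and none for H3K9me3, with OR10P1 at 98.0% and 100%. In the chromosome 9 cluster OR13F1 to OR13D1, 4 of 8 members were called for H3K27me3 and none for H3K9me3, with OR13F1 at 64.1% and 73.4%. The other chromosome 9 cluster, OR1J2 to OR1K1, had H3K9me3 over 23.2% and 15.8% of its span and H3K27me3 over 8.09% and 16.3%, and its genes differed: OR1L4 had 95.9% and 100% for H3K9me3 and 0% for H3K27me3, while OR1L1, in the same 354 kb, had 83.9% and 94.3% for H3K27me3 and 0% for H3K9me3. OR5K1, a pyrazine receptor of chromosome 3, had 8.09% and 6.81% for H3K27me3 and 4.80% and 0% for H3K9me3, and OR10J5, the lyral receptor of chromosome 1, had 0% in all 4 lists.

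Several of the most covered members stood alone or in a pair. OR10AD1 on chromosome 12 was the only member inside H3K9me3 peaks over 100% of its length in both lists, and it had 45.4% and 100% for H3K27me3. OR4D2, OR5AU1, OR2S2 and OR2Y1 were covered by H3K27me3 over 100% in both lists, as were OR1G1 and OR1A2 of chromosome 17, which made 6 in all. OR4D1, next to OR4D2, lay in an H3K27me3 peak of 15.9 kb in list 2 at an enrichment of 11.4-fold over background, higher than 99.7% of that list's peaks. OR2C1 on chromosome 16, a gene of 35.2 kb, had 71.7% and 71.3% for H3K9me3, with its widest peak measuring 19.5 kb in list 1 and 19.4 kb in list 2. Enrichments here and below are the authors' values from each list, and a percentile is the share of the same list's peaks that are lower.

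Genes around the clusters were set beside them. Of 417 other protein-coding genes within 250 kb of a member, 61 (14.6%) were called for H3K27me3 and 29 (6.95%) for H3K9me3. The shares in members were 29.4% and 11.5%, and this difference was not tested because neighbouring genes share peaks. Median length was 5188 bp in members and 13637 bp in these other genes. Of the 32 other genes that overlapped a cluster span, 6 (18.75%) were called for H3K27me3 and 7 (21.9%) for H3K9me3. That H3K9me3 share was above the 11.5% of members, so H3K9me3 is not read as setting receptors apart from their surroundings. Some of the 417 genes, such as KIR2DS2 near OR4F17, may be listed at positions of alternate contigs.

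Genes that act with the receptors in olfactory neurons were called for H3K27me3 in part, where the share over all protein-coding genes was 10.2%. None was called for H3K9me3, where that share was 3.67%, and with lists this short the absence is not read as a result. In the list of 13 olfactory transduction genes, 4 were called for H3K27me3, namely CNGA4 (a subunit of the cyclic nucleotide-gated channel, 38.2% and 40.6%), the chloride channel gene ANO2 (57.3% and 68.4%), the exchanger gene SLC24A4 (28.7% and 30.1%) and the G protein subunit gene GNG13 (51.4% and 100%). Of 14 genes of receptor choice and export, 4 were called for H3K27me3, including EMX2 (74.7% and 84.0%) and EBF2 (69.0% and 81.8%), which encode transcription factors. Among 37 other chemosensory receptors, 7 were called for H3K27me3 and 4 for H3K9me3. The bitter taste receptor TAS2R40 carried both, and the vomeronasal receptors VN1R1, VN1R2 and VN1R4, all on chromosome 19, had at least 95.6% for H3K9me3 and 0% for H3K27me3.

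Promoter sequences, here the 250 bases before and 50 bases after the first annotated start listed, were available for 176 of the 218 members (RefSeq, GRCh38.p14). They were poor in G and C, with a median of 38.3%, against 62.7% in 15813 protein-coding promoters, and held a median of 1 CpG, against 22. No CpG at all was found in 29 (16.5%), against 1.90% of all promoters. H3K27me3 covered at least 50% of the promoter in both lists at 28 members (15.9%), against 5.96% of all promoters, and H3K9me3 at 6 (3.41%), against 1.36%. The 6 were OR2L13, OR10AD1, OR1A2, OR1A1, OR4D1 and OR7D2. These 4 promoters, each 5′ to 3′ on the gene's strand with CpG in capitals, span the contrast between CpG-rich and CpG-free receptor promoters and between the marks. OR2L13 (chr1:247936927-247937226, plus strand) has 24 CpG and lay wholly in H3K9me3 peaks of both lists and in no H3K27me3 peak. OR1F1 (chr16:3187954-3188253, plus strand) has 19 CpG, no peak of either mark, and a FOXA1 peak in both WT lists. OR1A1 (chr17:3207417-3207716, plus strand) has 7 CpG and was covered by H3K27me3 over 100% in both lists and by H3K9me3 over 100% and 51.3%. OR7A5 (chr19:14835136-14835435, minus strand) has 0 CpG, shares this annotated start with OR7C1, and lay wholly in H3K27me3 peaks of both lists and in no H3K9me3 peak.
OR2L13: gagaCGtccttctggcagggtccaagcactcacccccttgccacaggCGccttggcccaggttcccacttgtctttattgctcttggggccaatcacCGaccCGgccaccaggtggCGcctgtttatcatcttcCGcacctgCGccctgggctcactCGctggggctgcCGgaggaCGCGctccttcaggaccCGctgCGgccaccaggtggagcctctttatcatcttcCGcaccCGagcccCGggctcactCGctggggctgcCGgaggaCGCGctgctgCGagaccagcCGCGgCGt
OR1F1: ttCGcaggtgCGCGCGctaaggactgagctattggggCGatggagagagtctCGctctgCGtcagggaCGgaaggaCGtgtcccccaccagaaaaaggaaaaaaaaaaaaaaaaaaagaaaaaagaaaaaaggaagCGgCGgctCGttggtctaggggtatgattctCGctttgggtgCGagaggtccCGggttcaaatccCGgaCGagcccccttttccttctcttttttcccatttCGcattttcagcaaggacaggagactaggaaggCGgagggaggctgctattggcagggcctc
OR1A1: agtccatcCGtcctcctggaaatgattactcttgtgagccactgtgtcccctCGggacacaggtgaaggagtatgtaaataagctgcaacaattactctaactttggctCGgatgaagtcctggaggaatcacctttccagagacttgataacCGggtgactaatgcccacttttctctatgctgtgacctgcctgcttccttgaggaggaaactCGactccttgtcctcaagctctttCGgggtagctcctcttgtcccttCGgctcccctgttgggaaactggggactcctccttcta
OR7A5: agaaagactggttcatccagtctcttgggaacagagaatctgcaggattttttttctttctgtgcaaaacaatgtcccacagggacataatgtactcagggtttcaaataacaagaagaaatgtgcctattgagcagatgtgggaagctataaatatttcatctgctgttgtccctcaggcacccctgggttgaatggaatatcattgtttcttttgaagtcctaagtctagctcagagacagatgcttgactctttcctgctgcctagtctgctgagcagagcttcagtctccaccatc

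FOXA1 regions called in both WT lists were near few members. Within 50 kb, 60 of 218 members (27.5%) had such a region, against 71.6% of all protein-coding genes and 58.1% of those of at most 10 kb, and the chromosome 11 receptors gave 36 of 171 (21.1%). These counts include genes inside peak-free stretches, 26 of them members, where a missing region is not read as absence. The 60 members shared 86 regions in 23 clusters, and 7 regions lay inside a member. The strongest was 23.5 kb from OR6J1 on chromosome 14 (chr14:22606200-22607474), at 37.7-fold and 93.3-fold, above 97.6% and 98.9% of the peaks of its lists. Other strong regions lay 18.3 kb from OR2K2 (25.5-fold and 53.5-fold), 25.7 kb from OR6S1 (26.7-fold and 49.0-fold) and 1.93 kb from OR10AD1 (14.3-fold and 35.9-fold). Of the 86 regions, 12 (13.95%) lay in H3K27me3 peaks of both lists, against 3.31% of all 35739 such FOXA1 regions, and 1 (1.16%) lay in H3K9me3 peaks of both, against 2.03%. Those 12 came from 9 clusters, and the strongest of them were inside OR3A2 (9.97-fold and 17.2-fold), 23.9 kb from OR5K4 (12.02-fold and 15.95-fold) and 32.4 kb from OR13J1 (10.9-fold and 15.5-fold).

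Of the 176 members, 2 (1.14%) had a FOXA1 peak of both WT lists in the promoter itself, against 4.34% of all promoters. These were OR1F1 (5.88-fold and 7.29-fold) and OR2F2 (4.01-fold and 5.47-fold). The letters TGTTTAC or TGTTTGC, a forkhead motif, were in 21 of the 176 members' promoters (11.9%), against 5.69% of all promoters. TGANTCA, the AP-1 motif, was in 20 (11.4%), against 5.75%. These letters hold more A and T than G and C, and the members' promoters had less G and C (median 38.3%, against 62.7%). Whether the shares differ beyond that was not tested. Both strands were searched, and the forkhead and AP-1 letters cannot match at the same position. These 3 promoters, 5′ to 3′ on the plus strand, hold such a match, shown in capitals, and pair it with different peaks. OR2F2 (chr7:143934983-143935282) holds TGANTCA and had the FOXA1 peaks of both WT lists but no FOSL2 peak within 1 kb. OR5H15 (chr3:98166446-98166745) holds TGTTTGC on the minus strand and had a FOXA1 peak in noDox list 2 and in WT list 1. OR11G2 (chr14:20190646-20190945) holds the same letters on the minus strand, had no peak of either factor in its promoter, and was covered there by H3K27me3 over 84.0% and 100%. A match is a description of these windows only.
OR2F2: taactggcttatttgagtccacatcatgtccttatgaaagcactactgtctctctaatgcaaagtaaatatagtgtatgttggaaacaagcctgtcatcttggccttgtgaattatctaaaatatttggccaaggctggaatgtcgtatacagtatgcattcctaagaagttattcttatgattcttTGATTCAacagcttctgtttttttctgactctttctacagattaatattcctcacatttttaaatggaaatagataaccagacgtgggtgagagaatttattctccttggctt
OR5H15: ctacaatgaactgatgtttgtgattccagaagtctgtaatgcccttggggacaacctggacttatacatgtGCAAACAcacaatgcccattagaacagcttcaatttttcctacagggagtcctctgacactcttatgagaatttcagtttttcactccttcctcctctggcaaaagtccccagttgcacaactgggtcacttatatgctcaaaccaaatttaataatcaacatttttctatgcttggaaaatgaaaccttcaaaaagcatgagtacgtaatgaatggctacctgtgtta
OR11G2: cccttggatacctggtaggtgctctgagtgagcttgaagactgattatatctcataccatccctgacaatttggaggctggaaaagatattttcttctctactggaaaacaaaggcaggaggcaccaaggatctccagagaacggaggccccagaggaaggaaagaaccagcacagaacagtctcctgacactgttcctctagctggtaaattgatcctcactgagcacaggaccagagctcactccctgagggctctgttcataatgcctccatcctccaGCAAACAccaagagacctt

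A-Fos induction was compared through the share of each list that lay within 50 kb of a member, since list lengths differed. For FOSL2, 12 and 29 peaks were near members with Dox, which is 0.647% and 0.550% of the lists, against 84 and 46 peaks without it, which is 0.184% and 0.310%. Both Dox libraries exceeded both noDox libraries in share, while their peak numbers were lower. The shares averaged 0.599% ± 0.0689 with Dox and 0.247% ± 0.0889 without (SD, n = 2 each), a difference of 0.351 percentage points (exact permutation test, two-sided, p = 0.33). That is the smallest p that 2 libraries against 2 allow, so no difference between these groups could pass a threshold of 0.05. Near the chromosome 11 receptors the FOSL2 shares were 0.324% and 0.209% with Dox and 0.0987% and 0.115% without it, so the rise is not particular to members. FOSL2 peaks per Mb near members, relative to those within 50 kb of all genes, were 1.73 and 1.44 with Dox and 0.430 and 0.747 without it. The median enrichment of the FOSL2 peaks near members was 3.76-fold and 3.51-fold with Dox and 4.52-fold and 3.78-fold without it, and over whole lists it was 3.51-fold in both Dox lists and 6.40-fold and 4.50-fold in the noDox lists.

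For FOXA1, 35 and 107 peaks lay near members with Dox (0.315% and 0.710%), against 19 and 49 without it (0.249% and 0.370%) and 160 and 174 in WT cells (0.324% and 0.217%). Dox library 2 stood apart from the other 5. The averages were 0.513% ± 0.280 with Dox and 0.309% ± 0.0855 without (SD, n = 2 each), which overlapped (difference 0.203 percentage points, exact permutation test, two-sided, p = 0.667). Without Dox library 2 the difference was 0.00557 percentage points. The noDox libraries also overlapped the WT ones (0.309% ± 0.0855 and 0.270% ± 0.0756, SD, n = 2 each, difference 0.0393 percentage points, p = 0.667 by the same exact test). Near the chromosome 11 receptors the FOXA1 shares were 0.0630% and 0.159% with Dox and 0.0393% and 0.0453% without it. FOXA1 peaks per Mb near members, relative to those within 50 kb of all genes, were 0.760 and 1.86 with Dox and 0.602 and 0.891 without it.

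**Figure D4:**
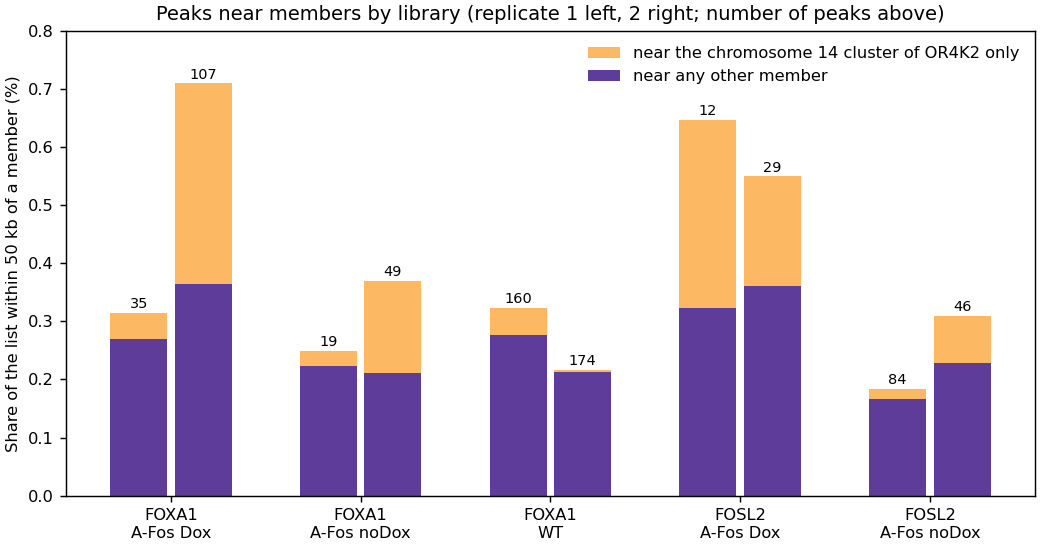
Share of each peak list within 50 kb of a member, in percent, with replicate 1 left and replicate 2 right in each group and the number of peaks above each bar. Orange marks peaks near the chromosome 14 cluster of OR4K2 only. FOXA1 Dox library 2 is the highest bar at 0.710%, and most of its excess over the other FOXA1 bars is orange.

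A single cluster accounted for 82 of the 354 FOXA1 regions of all 6 lists near members (23.2%) and for 27 of the 146 FOSL2 regions (18.5%). Around the 16 genes of OR11H2 to OR11H4 on chromosome 14 (chr14:19712936-20244349), 5 and 52 FOXA1 peaks were called with Dox, 2 and 21 without it and 23 and 3 in WT cells. FOSL2 peaks there numbered 6 and 10 with Dox and 8 and 12 without it. In each FOXA1 group, 1 library had many more peaks there than the other. The FOXA1 peaks were weak, with median enrichments of 2.89 to 3.77 over the 6 lists and a highest value of 6.15, and the 52 of Dox library 2 had a median percentile of 28.2. Of those 52, 22 (42.3%) lay in H3K27me3 peaks of both lists, against 8.32% of that whole list. FOSL2 peaks there lay in H3K27me3 for 5 of 6 and 10 of 10 with Dox, where the whole lists gave 21.0% and 23.3%, and for 2 of 8 and 7 of 12 without it, where the whole lists gave 5.96% and 8.54%. Among the 82 FOXA1 regions and 27 FOSL2 regions of the cluster, 16 overlapped, which is 19.5% of the FOXA1 regions and 59.3% of the FOSL2 regions. Without the cluster, the FOXA1 shares were 0.270% and 0.365% with Dox, 0.223% and 0.211% without it and 0.277% and 0.213% in WT cells. The FOSL2 shares were then 0.324% and 0.360% with Dox and 0.167% and 0.229% without it. Both Dox libraries were then above both noDox libraries for FOXA1 as well as FOSL2 (differences 0.100 and 0.144 percentage points, each p = 0.33 by the same exact permutation test). The inputs were not analysed here, and what sets these weak peaks apart was not tested.

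**Figure D5:**
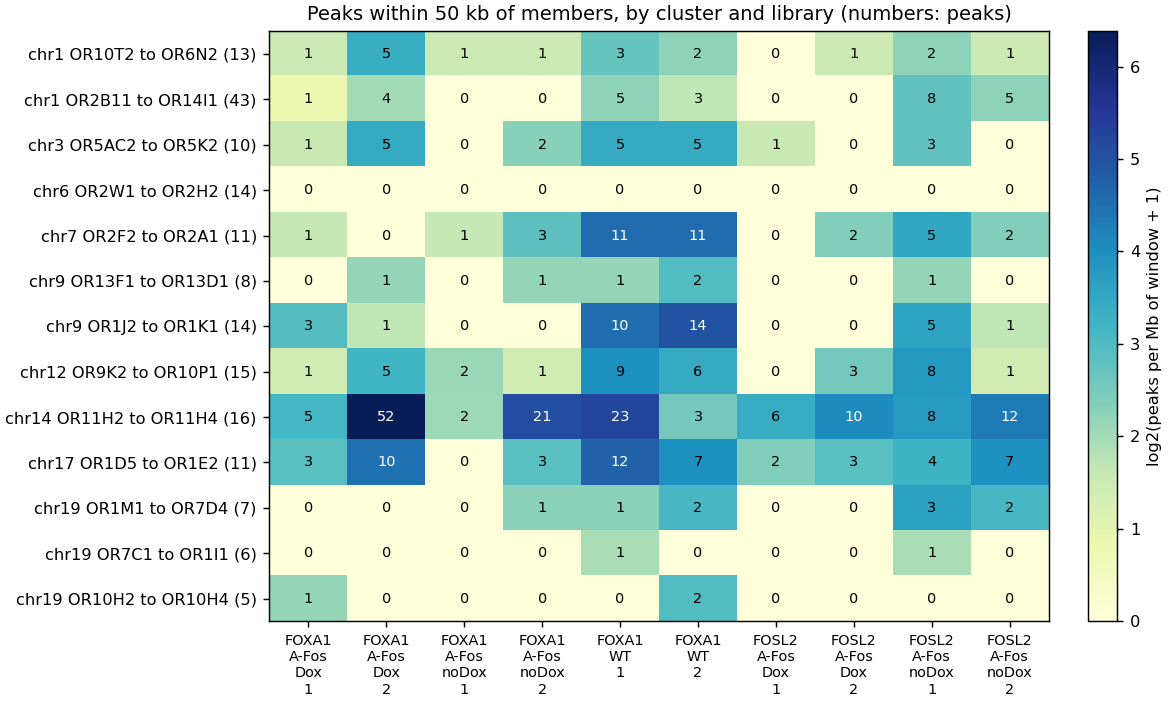
Peaks within 50 kb of members by cluster (rows, number of members in brackets) and library (columns; FOXA1 with Dox, without Dox and in WT cells, then FOSL2 with Dox and without Dox; replicates 1 and 2). Numbers are peaks and colour is log2 of peaks per Mb of window plus 1. The chromosome 14 cluster reaches 52 peaks in FOXA1 Dox library 2 and 3 in WT library 2, and the chromosome 6 cluster has 0 throughout.

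Overlapping peaks from the 4 A-Fos lists were joined into regions, each classed as lost (both noDox lists and neither Dox list), kept (all 4 lists) or gained (both Dox lists and neither noDox list). Peak numbering skips between 30 and 172 entries per A-Fos list, and none in the WT lists, for a reason not stated in the sources, so an absent peak may be a skipped one, which also bears on the list lengths and shares above. Of 146 FOSL2 regions near members, 14 were lost, none kept and none gained, against 17.8%, 0.0177% and 0.0443% of all 56430 FOSL2 regions, and 122 were called in 1 list only. Among regions called in both noDox lists, 14 of 15 (93.3%) were lost, against 98.4% overall. The largest lost FOSL2 region was 44.5 kb from OR1J2, at 44.0-fold and 11.9-fold in the noDox lists. Lost FOSL2 regions lay inside OR10J1 (18.2-fold and 3.75-fold) and OR2T11 (19.7-fold and 5.95-fold), 1.10 kb from OR13J1 (6.25-fold and 2.90-fold) and 2.41 kb from OR2V1 (19.4-fold and 6.70-fold).

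Of 154 FOXA1 regions of the A-Fos lists near members, 4 were lost, 7 kept and 6 gained, against 6.73%, 11.5% and 4.60% of all 27825 FOXA1 regions, and 116 were called in 1 list only. Among those called in both noDox lists, 4 of 14 (28.6%) were lost, against 31.1% overall. The lost regions were nearest to OR6J1, OR2F1, OR10J5 and OR2AE1. That near OR6J1 had 9.12-fold and 13.7-fold in the noDox lists and was the only 1 of the 17 classed regions to overlap a FOSL2 region called in both noDox lists. A FOSL2 peak of some A-Fos list overlapped 6 of the 17, among them the gained region at OR4K2 (Dox library 1). The same shares over all classed FOXA1 regions were not computed, so these overlap counts are not read as high or low. A second region, 8.63 kb from OR6J1 on the other side, was kept at 17.002-fold and 16.6-fold with Dox and 11.6-fold and 15.8-fold without it. Other kept regions included those near OR2K2 (4.76-fold and 16.02-fold with Dox, 13.7-fold and 25.7-fold without it) and OR10AD1, which had 2, the nearer with 10.5-fold and 7.84-fold with Dox and 6.99-fold and 8.90-fold without it. Gained regions were nearest to OR2B6, OR1J2, OR5BS1, OR4N2, OR4K2 and OR4E1. The strongest gained region, near OR1J2, had 11.8-fold and 5.73-fold with Dox and was also called in both WT lists (12.02-fold and 23.2-fold), as were those near OR5BS1 and OR4E1. Of the 6, those near OR5BS1, OR4N2, OR4K2 and OR4E1 lay in H3K27me3 peaks of both WT lists. Of all peaks in the FOXA1 lists, 9.18% and 8.32% lay there with Dox and 2.86% and 2.04% without it. The share over all gained regions was not computed, so this count is not read as particular to members. The gained regions near OR4N2 and OR4K2 were weak, with 2.44-fold and 2.69-fold and with 2.58-fold and 4.08-fold in the Dox lists.

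Within 1 kb of the gene, a FOXA1 peak of some list was found at 39 members (17.9%), against 60.7% of all genes and 31.0% of those of at most 10 kb. The shares within 1 kb again include the 26 members inside peak-free stretches. A FOSL2 peak was found at 30 members (13.8%), against 40.9% of all genes and 10.2% of those of at most 10 kb. Both factors were found at 16 members (7.34%), against 35.9% and 6.42%, and either at 53 (24.3%), against 65.7% and 34.8%. Dox FOXA1 libraries reached 5 (2.29%) and 19 (8.72%) members, against 15.4% and 17.5% of all genes and 1.94% and 2.26% of those of at most 10 kb. The noDox FOXA1 libraries reached 0 and 7 (3.21%) members, against 11.4% and 17.0% of all genes and 1.01% and 1.89% of the short ones. The WT libraries reached 19 (8.72%) and 16 (7.34%) members, against 41.7% and 57.6% of all genes and 13.3% and 28.8% of the short ones. Members thus had a lower share than all genes in each FOXA1 library, a difference that was not tested. Against the short genes no direction is read for either factor, since only 166 of the 218 members are at most 10 kb long. Of the 7 members reached in noDox FOXA1 library 2, OR2A42, OR4M1, OR4N2, OR4K1 and OR3A2 are longer than that. FOSL2 libraries reached 4 (1.83%) and 7 (3.21%) members with Dox, against 3.12% and 7.22% of all genes and 0.106% and 0.636% of the short ones. Without Dox they reached 16 (7.34%) and 12 (5.50%) members, against 38.5% and 18.5% of all genes and 9.31% and 2.49% of the short ones. OR2A42 on chromosome 7 had a FOXA1 peak at 7.93-fold in noDox library 2 and at 17.1-fold and 12.5-fold in WT cells, but it has a near-identical neighbour in OR2A1, so these values are uncertain. OR3A2 held a FOXA1 peak at 1 place in noDox library 2 (5.03-fold) and both WT lists (9.97-fold and 17.2-fold). FOSL2 noDox library 1 had a peak at that place too (3.32-fold). Elsewhere in OR3A2, FOXA1 peaks were called in Dox library 2 (3.17-fold), noDox library 2 (3.38-fold) and WT library 1 (2.79-fold). OR4M1 in the chromosome 14 cluster had FOSL2 peaks in all 4 A-Fos lists, at 3.90-fold and 5.18-fold with Dox and 4.53-fold and 6.31-fold without it. The peak of Dox library 2 overlapped both noDox peaks, while that of Dox library 1 lay elsewhere in the gene. OR2A5, with 18.2-fold in noDox library 1, had a FOSL2 peak in that list alone.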

How the data were processed

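The 14 ChIP-seq peak lists of A549 cells were used, 1 per library, with groups and replicate numbers from the sample titles; the 3 inputs were left out. For every peak the deposited files hold a position, the authors' fold enrichment over background (a ratio), and a p-value and q-value, both deposited as −log10. Per the submitters' processing notes, fastp 0.23.2, BWA 2.2.1, SAMtools 1.8, MACS2, deepTools and DRAGEN were among the tools, on hg38; settings and order are not stated. The files hold no counts, so no depth or count-based precision can be given.

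Only peaks of chromosomes 1 to 22 and X entered, written 1-based. Gene intervals came from a RefSeq table of GRCh38.p14, whose chromosome coordinates are those of hg38. Some listed gene positions may instead be those of alternate contigs. KIR2DS2 is listed near the start of chromosome 19, and TAS2R45 far from the other TAS2R genes of chromosome 12. Such genes were kept, so they enter the counts of all genes, of neighbours and of chemosensory receptors. Cover, clusters (members under 250 kb apart) and peaks within 50 kb of a member, each counted once, were computed in Python 3.11.15 with pandas 2.3.3 and numpy 2.4.6, in scripts tested on simulated data. Where the promoter table lists several starts for a gene, the first was used. A gene was called at 25% cover in both lists. Shares of lists were compared by exact two-sided permutation over libraries, and members were described by counts beside all genes, without set tests. For each region, the call in replicate 1 minus that in replicate 2 was taken with Dox and without it. These differences correlated at r = 0.0166 over 27825 FOXA1 regions and 0.164 over 56430 FOSL2 regions. With 2 libraries per group this is a weak check, and the numbers were not taken as pairs.

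The members and gene lists were chosen with earlier results of these data known. Genes were named as the 10 most covered by each mark (at most 3 per cluster), the most covered of each cluster of 5 or more, members with a factor peak within 1 kb, the nearest to each class of region, and 9 receptors with known ligands; about 30 are given in full. Members named outside this rule, such as OR2L13, OR7A17, OR7E24, OR7A5 and OR5K4, were chosen after their values were seen. The enrichment of peaks, list length, window, cover threshold, gene extension and each library were varied; the comparisons with genes of at most 10 kb, without the chromosome 14 cluster and without peak-free stretches were chosen after seeing the data.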

Additional observations from a re-analysis of the deposited data

How the results depend on the processing

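Over 15 results and 125 alternatives, 38 moved, 4 reversed and 83 did neither, where counts had to stay within 1.5 times, medians within 1 SD and differences in share only to keep their sign; the cause was not tested. The 4 reversals all concern the FOXA1 share, noDox minus WT: -0.0388 percentage points with only peaks at or above each list's median enrichment, -0.0279 without the chromosome 14 cluster, and -0.0212 to 0.0998 when 1 library was left out, with -0.0212 without noDox replicate 2 and -0.0142 without WT replicate 2. With such peaks, called members fell to 14 for H3K9me3 and 40 for H3K27me3 and both medians of cover to 0; with genes extended by 10 kb they were 10 and 41, and the H3K9me3 median was 5.66. With lists of equal length the H3K9me3 median was 0, and without members in peak-free stretches the H3K27me3 median was 13.7. Calls at 10%, at 50% and at any overlap were 48, 12 and 71 for H3K9me3, and at 50% and any overlap 39 and 102 for H3K27me3. With 1 mark list left out, H3K9me3 called 34 to 43 members (median 0 to 1.78) and H3K27me3 68 to 87 (median 0 to 7.495). Within 10 kb, FOXA1 lost, kept and gained regions were 0, 3 and 3, FOSL2 lost regions 4, and members with a WT FOXA1 region 22; within 100 kb, FOXA1 lost regions were 9 and those members 103. With only peaks at or above the median, FOXA1 lost and gained regions were 1 and 3 and FOSL2 lost regions 7. With 1 library left out, FOXA1 lost regions were 5 to 23, gained 6 to 82 and kept 7 to 9; FOSL2 lost regions were 14 to 83, gained 0 to 21 and kept 0 to 1; members with a WT FOXA1 region were 100 to 120. The FOXA1 share, Dox minus noDox, was then 0.00557 to 0.401 and 0.075 with only peaks at or above the median, noDox minus WT 0.00104 within 100 kb, and the FOSL2 share 0.289 to 0.414. With the replicate number as a block the differences were 0.203 and 0.351 percentage points for Dox minus noDox and 0.0393 for noDox minus WT (exact sign-flip p = 0.5, 0.5 and 1, where 0.5 is the smallest possible); it changed no call. Depth is unknown, and lists of 1854 to 80318 peaks limit what an absent peak can show.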
